A study of Homo sapiens with 6 samples.

Results

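The sestrin genes SESN1, SESN2 and SESN3, the stress gene DDIT4 (also named REDD1) and 6 genes of mTOR control, TSC1, TSC2, DEPTOR, RPTOR, MTOR and PRKAB1, were followed during p53 activation. The rule that picks them is a list of gene names and uses no measured value. All 10 genes were found among the 57905 genes of the count matrix and all 10 passed the low-count filter that left 16565 genes for testing. The cells were HCT116, a line from a human colorectal carcinoma whose p53 response is wild-type, and their RNA was sequenced in 3 conditions. Nut 0h cells received only the vehicle DMSO, Nut 1h cells were treated for 1 h and Nut 10h cells for 10 h with 10 µM Nutlin-3a, a compound that keeps p53 from its inhibitor MDM2. Each condition had 2 biological replicates, which makes 6 libraries, all of a single cell line, with no genetic change named in their labels. The same Nut 0h libraries are the control for both treatment times. With no vehicle libraries for each time and no cells lacking p53, effects of p53, compound and time in culture cannot be told apart.

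The mTOR kinase joins RPTOR, MLST8 and other subunits in a complex, mTORC1, which promotes protein synthesis and growth and restrains autophagy when nutrients and growth factors are at hand. Its activator at the lysosome is the small GTPase RHEB, which the TSC1-TSC2 complex switches off, and amino acids reach it through the Rag GTPases under the control of GATOR1 and GATOR2. Sestrins bind GATOR2, DDIT4 acts through the TSC complex, and AMPK, the kinase that reads cellular energy, phosphorylates TSC2 and RPTOR. SESN1, SESN2, DDIT4 and PRKAB1 are known p53 targets, through which stress signals can lower mTORC1 activity.

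The libraries held between 26068076 and 35473485 counts assigned to genes. The study calls the replicates biological. The p-values set the difference between conditions against the spread between replicates, which was estimated with information shared across genes. The p53 response was checked on CDKN1A, an inhibitor of cell cycle kinases, which went up at Nut 10h (log2 fold change of 3.84, SE 0.11, adjusted p = 1.03e-10) and was not called at Nut 1h (0.046, SE 0.10, adjusted p = 0.704), and on MDM2, which was upregulated at Nut 1h (2.19, SE 0.13, adjusted p = 3.54e-08) and at Nut 10h (3.74, SE 0.13, adjusted p = 4.51e-10). All 6 epithelial markers were present in every library, with a summed level of 3600 to 7430 CPM, a count scaled to library size. Of 9 markers of other cell types 8 were matched, and their sum of 24.4 to 42.7 CPM came almost entirely from COL1A1, while PTPRC, CD3E, COL3A1, HBB and ALB had at most 2 counts in any library. In RNA from a whole culture, fewer cells of a type and less RNA per cell cannot be told apart. At Nut 1h the fold changes followed the GC content of the transcripts. Across 16137 tested genes the log2 fold change against Nut 0h had a Pearson r of -0.69 with GC content at Nut 1h and -0.03 at Nut 10h, given as a description because genes are not independent. The Nut 1h fold changes of the 10 genes are therefore also given with an offset that removes a smooth GC trend from each library. With it CDKN1A was called higher at Nut 1h (0.69, adjusted p = 3.24e-06), and MDM2 was 2.83-fold higher (adjusted p = 4.46e-10), against 4.56-fold without it. Whether this trend is technical or biological was not tested.

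The promoters of the 4 genes with the largest changes are shown first, because these genes carry the results below. SESN1, PRKAB1 and SESN2 had the largest rises at Nut 10h and DDIT4 the largest fall at Nut 1h. Each line gives the 250 bases before a RefSeq start site in GRCh38.p14, 5′ to 3′ on the gene's strand. The windows are chr6:109008989-109009238 on the minus strand for SESN1, chr12:119667883-119668132 on the plus strand for PRKAB1, chr1:28259268-28259517 on the plus strand for SESN2 and chr10:72273674-72273923 on the plus strand for DDIT4. Capitals mark the best match to the p53 consensus response element, which consists of 2 decamers and was searched without a spacer, each with its core C and G around a pair of A or T bases.
SESN1: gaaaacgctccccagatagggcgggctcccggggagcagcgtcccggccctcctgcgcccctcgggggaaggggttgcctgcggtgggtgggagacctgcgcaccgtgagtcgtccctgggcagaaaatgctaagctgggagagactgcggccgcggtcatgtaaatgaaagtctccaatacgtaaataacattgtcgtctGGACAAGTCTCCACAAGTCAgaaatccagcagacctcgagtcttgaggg
PRKAB1: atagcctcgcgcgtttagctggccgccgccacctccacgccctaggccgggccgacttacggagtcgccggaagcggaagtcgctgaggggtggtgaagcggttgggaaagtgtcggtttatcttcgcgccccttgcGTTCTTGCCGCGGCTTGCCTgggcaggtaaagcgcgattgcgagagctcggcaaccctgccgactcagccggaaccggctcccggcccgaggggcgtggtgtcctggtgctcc
SESN2: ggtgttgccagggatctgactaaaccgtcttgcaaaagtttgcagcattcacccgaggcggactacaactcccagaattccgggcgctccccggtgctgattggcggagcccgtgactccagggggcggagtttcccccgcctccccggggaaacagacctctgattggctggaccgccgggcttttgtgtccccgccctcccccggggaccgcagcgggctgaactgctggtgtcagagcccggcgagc
DDIT4: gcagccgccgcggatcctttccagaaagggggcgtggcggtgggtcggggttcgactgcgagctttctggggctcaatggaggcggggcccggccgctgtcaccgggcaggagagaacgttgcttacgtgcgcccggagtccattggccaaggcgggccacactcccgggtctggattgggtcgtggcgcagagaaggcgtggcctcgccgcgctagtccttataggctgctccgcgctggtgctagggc

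The SESN1 match lies 49 bases before the third of its 3 RefSeq starts and has 3 mismatches to the consensus outside the cores. The PRKAB1 match lies 113 bases before the start and has 4 mismatches. Such letters, read the same on either strand, were found with both cores in 3.92% of all 35116 promoter windows, and in 125 windows, or 0.356%, with at most 3 mismatches, a limit chosen after the SESN1 match was seen. With at most 4 mismatches, the limit that also takes in PRKAB1, 275 windows held a match. No match with both cores was present in the windows of SESN2, DDIT4, SESN3, TSC1, TSC2, RPTOR and MTOR or at the other SESN1 starts, which says only that these letters are not in those 250 bases. A match is a description of letters, and no binding was measured here.

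To ask how the sestrins differed between the 3 conditions, their counts were compared library by library. Sestrins are stress-induced proteins that restrain mTORC1, and SESN1 and SESN2 bind GATOR2 in a leucine-sensitive way. SESN1 (ENSG00000080546, GRCh37 chr6:109305512-109416049) had 285.1 and 285.5 normalized counts at Nut 0h, 421.4 and 459.4 at Nut 1h, then 1712 and 1933 at Nut 10h. Every Nut 10h library was thus above every other library. SESN1 was upregulated 6.39-fold at Nut 10h (log2 fold change 2.68, SE 0.11, adjusted p = 1.47e-09, edgeR quasi-likelihood test), the largest rise of the 10 genes. At Nut 1h it was called higher (0.62, SE 0.12, adjusted p = 0.000304), but with the GC-content offset the value was -0.02 (adjusted p = 0.901) and the call was lost.

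SESN2 (ENSG00000130766, chr1:28586029-28609002) had 1549 and 1268 normalized counts at Nut 0h, 920.0 and 950.2 at Nut 1h, then 4017 and 3569 at Nut 10h. The 3 conditions did not overlap, with Nut 1h lowest and Nut 10h highest. SESN2 was upregulated 2.69-fold at Nut 10h (log2 fold change 1.43, SE 0.11, adjusted p = 2.65e-07). The lower level at Nut 1h passed the test (-0.59, SE 0.11, adjusted p = 0.000364), but the GC-content offset turned it to 0.17 (adjusted p = 0.0867).

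SESN3 (ENSG00000149212, chr11:94898677-94965705), the sestrin with the fewest counts, had 102.4 and 105.2 normalized counts at Nut 0h, 207.7 and 178.7 at Nut 1h, then 161.5 and 211.2 at Nut 10h. Both treated conditions were above Nut 0h, and they overlapped each other. SESN3 was upregulated 1.80-fold at Nut 10h (log2 fold change 0.84, SE 0.17, adjusted p = 0.00228). Its rise at Nut 1h (0.90, SE 0.18, adjusted p = 0.000434) became 0.10 with the GC-content offset (adjusted p = 0.617). Its raw counts were only 106 to 227 per library, and its standard errors exceeded those of SESN1 and SESN2.

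**Figure D1:**
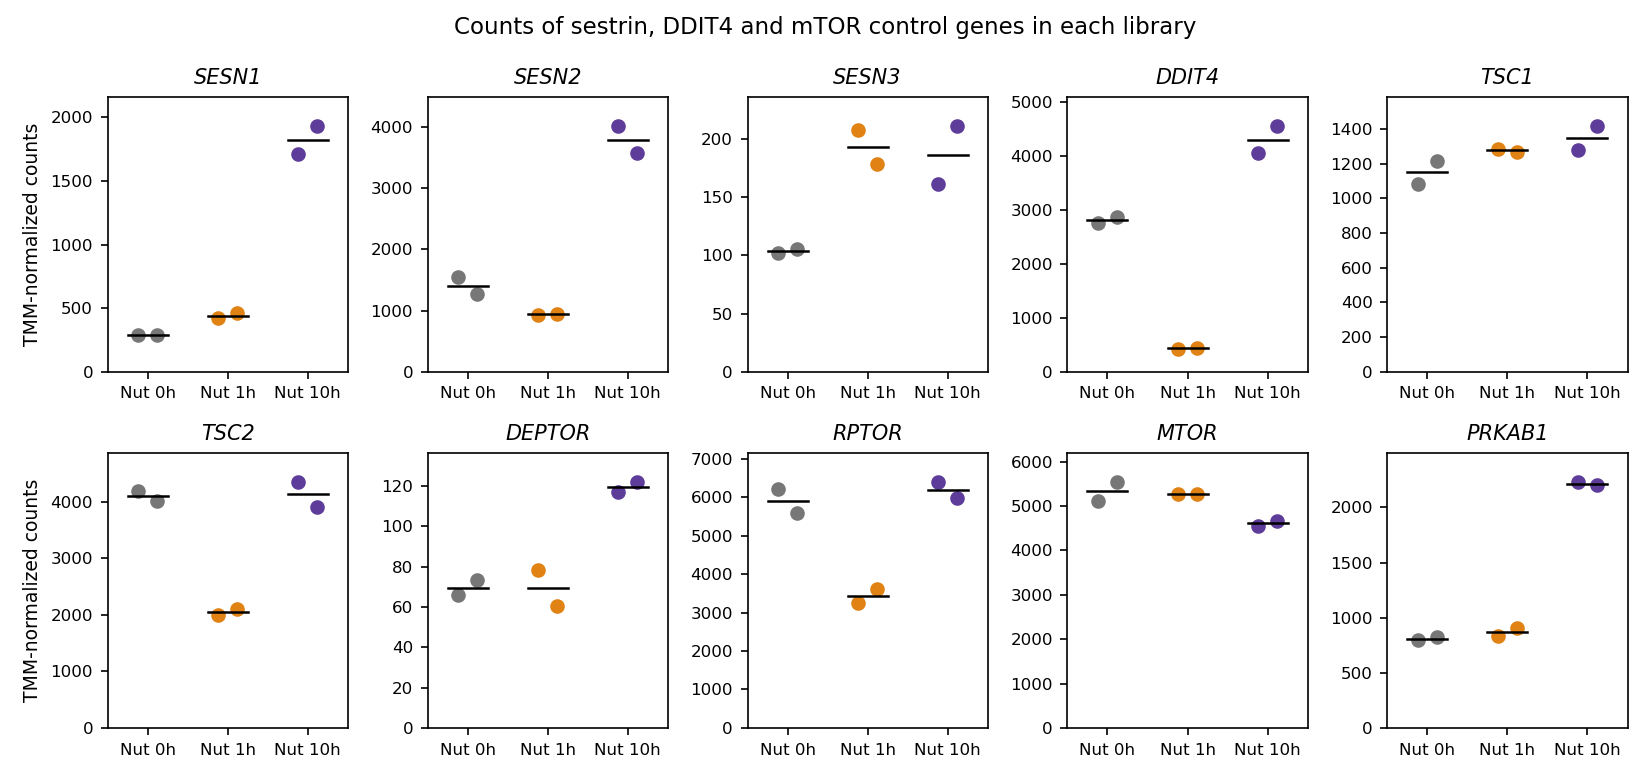
TMM-normalized counts of each gene (vertical axis, starting at 0) in the 3 conditions. Points are the 2 libraries of a condition and bars their mean. SESN1, SESN2, DDIT4, DEPTOR and PRKAB1 are highest in both Nut 10h libraries, and SESN2, DDIT4, TSC2 and RPTOR are lowest in both Nut 1h libraries.

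Levels of different genes were compared per kb of transcript. On this scale SESN2 made up 88.0% and 85.6% of the 3 sestrins at Nut 0h, 73.4% and 73.3% at Nut 1h, then 78.4% and 73.9% at Nut 10h. SESN1 took 9.90% and 11.8% at Nut 0h, 20.6% and 21.7% at Nut 1h, then 20.4% and 24.5% at Nut 10h. SESN2 was thus the main sestrin transcript in all 6 libraries, and the share of SESN1 was higher in every treated library than in either Nut 0h library. The summed sestrin level was 508.5 and 427.6 normalized counts per kb at Nut 0h, 361.9 and 374.3 at Nut 1h, then 1479 and 1394 at Nut 10h. No test was made on these shares, and those of Nut 1h come from values without the GC-content offset, which moved SESN1, at 40.6% GC, down and SESN2, at 59.6% GC, up.

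**Figure D2:**
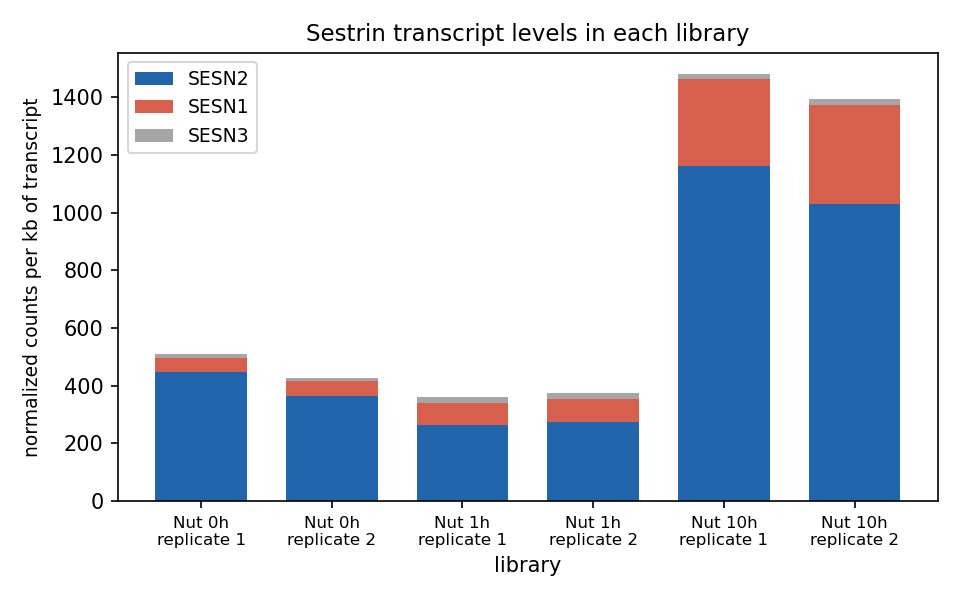
Stacked levels of SESN2, SESN1 and SESN3 in normalized counts per kb of transcript (vertical axis) in each of the 6 libraries (horizontal axis). The Nut 10h columns reach 1479 and 1394, against 508.5 and 427.6 at Nut 0h, and SESN2 is the largest segment in each column.

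DDIT4, which hypoxia, glucocorticoids and DNA damage induce and whose protein lowers mTORC1 activity through the TSC complex, moved in opposite directions at the 2 time points. The gene (ENSG00000168209, chr10:74033678-74035794) had 2755 and 2858 normalized counts at Nut 0h, 415.4 and 443.0 at Nut 1h, then 4041 and 4550 at Nut 10h. All libraries of Nut 1h were below, and all of Nut 10h above, those of Nut 0h. DDIT4 was downregulated 6.54-fold at Nut 1h (log2 fold change -2.71, SE 0.11, adjusted p = 1.37e-09) and 4.18-fold with the GC-content offset (-2.06, SE 0.10, adjusted p = 8.55e-11). It was the only one of the 10 genes whose change at Nut 1h passed the test with this offset. At Nut 10h it was upregulated 1.53-fold (0.61, SE 0.09, adjusted p = 0.000222). Between Nut 1h and Nut 10h the level rose 10.0-fold (3.32, SE 0.11, adjusted p = 1.05e-10), and 6.28-fold with the GC-content offset (2.65, adjusted p = 6.43e-13).

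The TSC complex takes RHEB to its inactive state, with TSC2 as the catalytic and TSC1 as the stabilizing subunit. TSC1 (ENSG00000165699, chr9:135766735-135822261) had 1084 and 1216 normalized counts at Nut 0h, 1288 and 1267 at Nut 1h, then 1278 and 1418 at Nut 10h. Although all treated libraries were above Nut 0h, neither difference passed the test (log2 fold change 0.15, adjusted p = 0.203 at Nut 1h, and 0.23, adjusted p = 0.108 at Nut 10h), and with the GC-content offset the Nut 1h value was 0.05 (adjusted p = 0.648). TSC2 (ENSG00000103197, chr16:2097968-2139492) had 4186 and 4022 normalized counts at Nut 0h, 2003 and 2099 at Nut 1h, then 4350 and 3920 at Nut 10h. The Nut 1h libraries alone stood apart, and Nut 10h overlapped Nut 0h (0.01, SE 0.09, adjusted p = 0.946). The fall of TSC2 at Nut 1h (-1.001, SE 0.09, adjusted p = 8.81e-07) was reduced by the GC-content offset to -0.04 (adjusted p = 0.679). TSC2 has the highest GC content of the 10 genes, 62.0%.

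Among the genes of mTORC1 itself, MTOR, the kinase (ENSG00000198793, chr1:11166592-11322613), had 5125 and 5539 normalized counts at Nut 0h, 5264 and 5266 at Nut 1h, then 4551 and 4674 at Nut 10h. Both Nut 10h libraries were below all others. The difference at Nut 10h did not pass the test (log2 fold change -0.21, SE 0.09, adjusted p = 0.0967) but did with the GC-content offset (-0.26, SE 0.07, adjusted p = 0.00661). At Nut 1h MTOR had a value of -0.02 (SE 0.09, adjusted p = 0.867), and 0.15 (adjusted p = 0.0789) with the GC-content offset. With the transcript-length offset edgeR's test called MTOR lower at both times, at -0.36 (adjusted p = 0.00187) at Nut 1h and -0.31 (adjusted p = 0.0128) at Nut 10h. RPTOR, the subunit that recruits substrates (ENSG00000141564, chr17:78518619-78940171), had 6226 and 5599 normalized counts at Nut 0h, 3256 and 3616 at Nut 1h, then 6391 and 5970 at Nut 10h. Like TSC2, it was low only at Nut 1h (-0.78, SE 0.10, adjusted p = 9.35e-06), and there the offset gave 0.02 (adjusted p = 0.871). At Nut 10h its value was 0.06 (SE 0.10, adjusted p = 0.668).

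DEPTOR, a subunit that inhibits the kinase in both mTOR complexes (ENSG00000155792), had few reads, 48 to 131 raw counts per library. It had 65.7 and 73.2 normalized counts at Nut 0h, 78.3 and 60.4 at Nut 1h, then 117 and 121.9 at Nut 10h. The Nut 1h libraries spanned those of Nut 0h, and both Nut 10h libraries were above all others. DEPTOR was upregulated 1.72-fold at Nut 10h (log2 fold change 0.78, SE 0.20, adjusted p = 0.00861), a call that DESeq2 did not make (0.76, adjusted p = 0.0719). At Nut 1h the value was 0.01 (SE 0.21, adjusted p = 0.975), and -0.32 (adjusted p = 0.224) with the GC-content offset.

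PRKAB1 encodes the β1 scaffold subunit of AMPK, which holds the catalytic and the regulatory subunit together. The gene (ENSG00000111725, chr12:120105669-120119429) had 797.2 and 822.6 normalized counts at Nut 0h, 830.7 and 902.4 at Nut 1h, then 2229 and 2204 at Nut 10h. Its Nut 10h libraries were far above the other 4. PRKAB1 was upregulated 2.74-fold at Nut 10h (log2 fold change 1.45, SE 0.10, adjusted p = 6.24e-08), whereas its value at Nut 1h was 0.10 (SE 0.10, adjusted p = 0.401), and -0.04 with the GC-content offset (adjusted p = 0.711). PRKAB2, which encodes the alternative β2 subunit, had 531.5 and 565.3 normalized counts at Nut 0h, 901 and 806.7 at Nut 1h, then 1221 and 1503 at Nut 10h. It was upregulated 2.48-fold at Nut 10h (1.31, SE 0.12, adjusted p = 1.38e-06). Its rise at Nut 1h (0.64, adjusted p = 0.000324) became 0.03 with the offset (adjusted p = 0.795). Per kb of transcript, PRKAB1 made up 78.3% and 77.8% of the β subunits at Nut 0h, 68.9% and 72.9% at Nut 1h (without the offset), then 81.5% and 77.9% at Nut 10h. These shares use a length of 2219 bases for PRKAB1, whose longest transcript has 4019, and depend on that choice.

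In all, edgeR called 6 of the 10 genes higher and 0 lower at Nut 10h against Nut 0h, where 14.1% of all tested genes were called higher and 14.9% lower. DESeq2 called 5 higher and 0 lower, and at an unadjusted p under 0.05 edgeR had 1 lower, MTOR. The GC-content offset kept these 6 calls and added MTOR as lower, against 16.8% and 22.4% of all tested genes. At Nut 1h against Nut 0h, 2 genes were called higher, SESN1 and SESN3, and 4 lower, SESN2, DDIT4, TSC2 and RPTOR, beside 34.5% and 32.3% of all tested genes. With the offset 0 were called higher and 1 lower, beside 20.3% and 25.2%, and 2, MTOR and SESN2, were higher at an unadjusted p under 0.05. Without the offset DESeq2 gave the same counts as edgeR at Nut 1h. Against these backgrounds the counts at Nut 1h do not stand out, while 6 of 10 called higher at Nut 10h is above the share of all genes. These counts share the Nut 0h libraries. They describe genes chosen for their known roles and with earlier results of these data known.

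**Figure D3:**
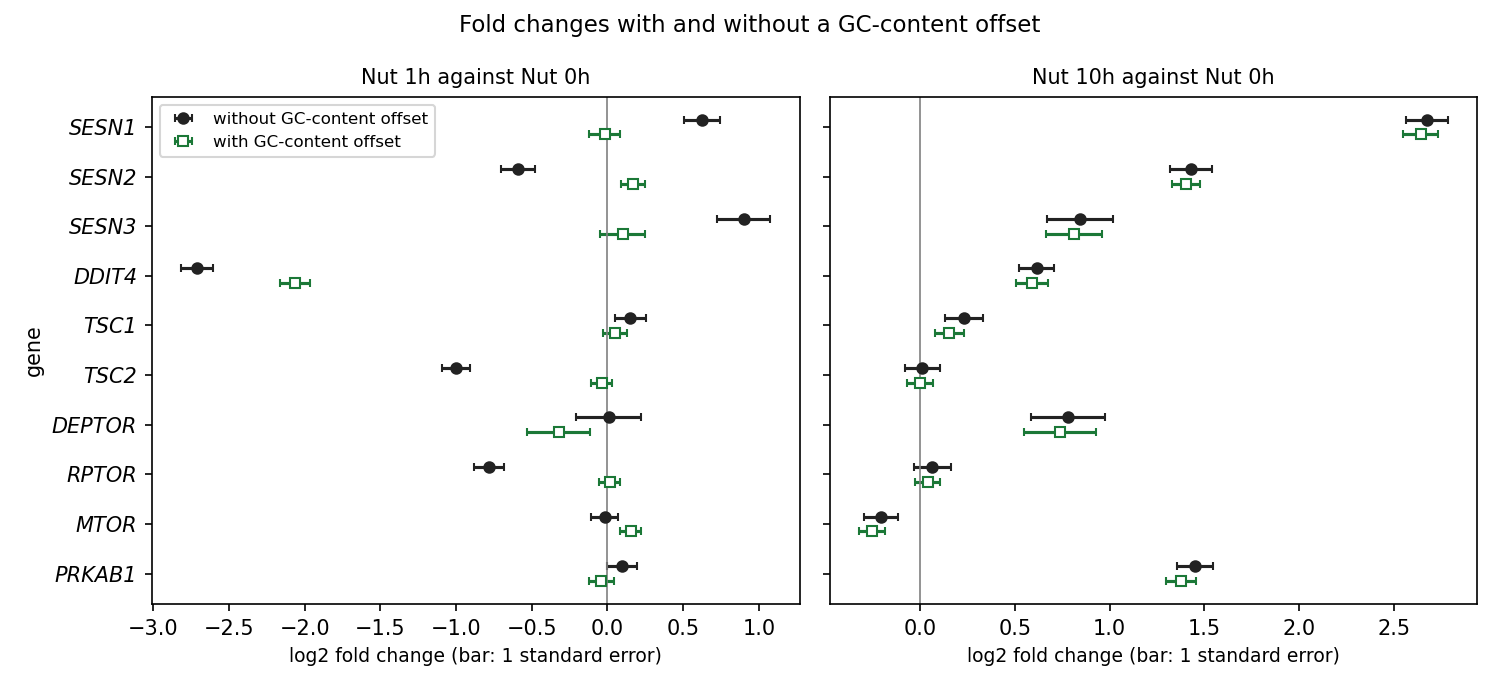
Log2 fold change against Nut 0h (horizontal axis) of each gene at Nut 1h (left) and Nut 10h (right), without (filled circles) and with (open squares) the GC-content offset. Bars are 1 standard error. At Nut 1h only DDIT4 stays far from 0 with the offset, at -2.06, while at Nut 10h the pairs of symbols lie close together.

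**Figure D4:**
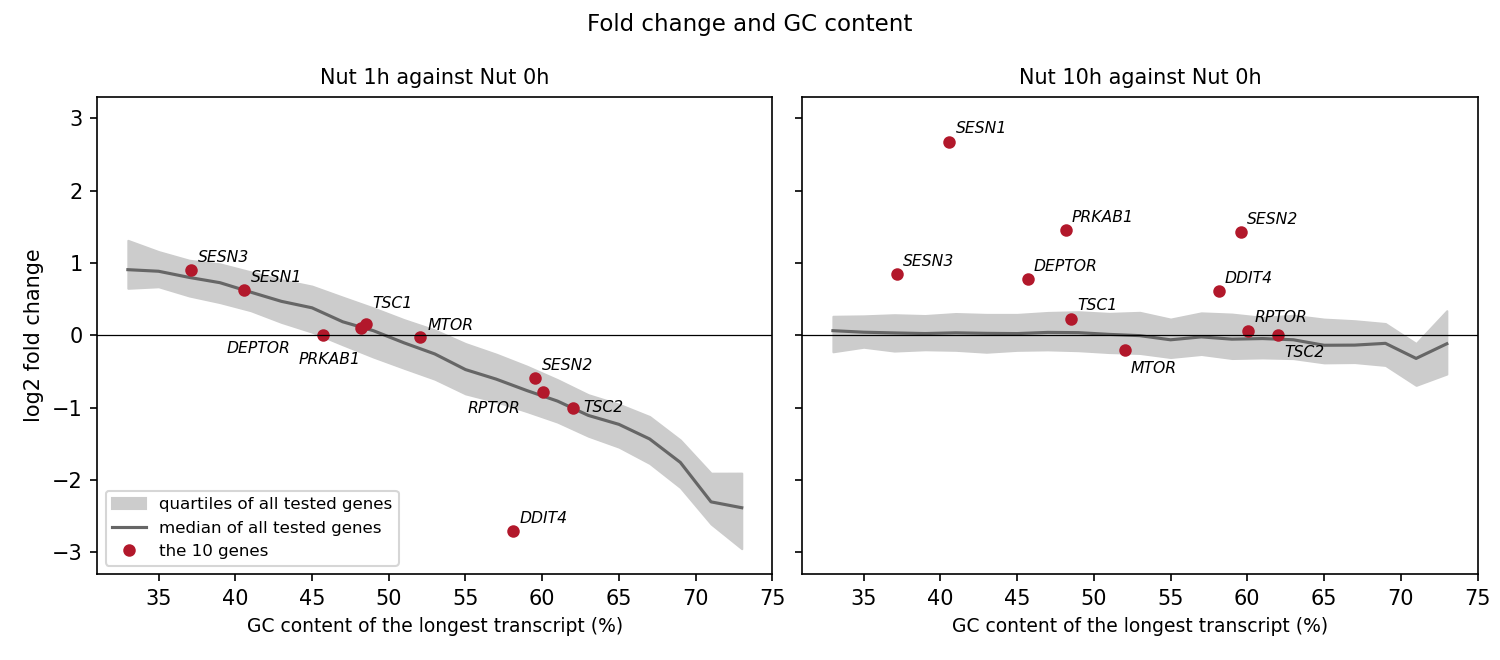
Log2 fold change against Nut 0h (vertical axis) by GC content of the longest transcript in percent (horizontal axis) at Nut 1h (left) and Nut 10h (right). The line and band are the median and quartiles of all tested genes in GC bins with at least 20 genes, and red points are the 10 genes. At Nut 1h 9 of the 10 genes lie in or next to the band and DDIT4 lies far below it, and at Nut 10h SESN1, SESN2, PRKAB1, SESN3, DEPTOR and DDIT4 lie above it.

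The change from Nut 1h to Nut 10h was tested directly. By this test 7 genes were called higher and 0 lower in edgeR and in DESeq2 (0 lower also at an unadjusted p under 0.05 in each), where 34.2% and 33.7% of all tested genes were called, and with the GC-content offset 6 were higher and 1 lower, where 29.0% and 28.8% were. SESN1 rose by 2.05 on the log2 scale (SE 0.11, adjusted p = 2.69e-09), SESN2 by 2.02 (SE 0.11, adjusted p = 4.59e-09) and PRKAB1 by 1.356 (SE 0.10, adjusted p = 3.88e-08), and DEPTOR by 0.77 (SE 0.20, adjusted p = 0.00368). All of these kept their calls with the offset, as DDIT4 did, with 2.65 (adjusted p = 6.43e-13). The rises of TSC2 (1.01, adjusted p = 4.57e-07) and RPTOR (0.85, adjusted p = 3.85e-06) were lost with it (0.04, adjusted p = 0.674, and 0.02, adjusted p = 0.803). SESN3 had -0.06 (adjusted p = 0.778) without and 0.71 (adjusted p = 0.000288) with the offset, and MTOR -0.19 (adjusted p = 0.0726) and -0.41 (adjusted p = 6.82e-05).

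The order of the transcript levels, in mean normalized counts per kb, changed with treatment. At Nut 0h DDIT4 was highest with 1605 ± 41.5 (SD, n = 2), followed by RPTOR (865 ± 64.9), TSC2 (640 ± 18.1), MTOR (611 ± 33.5), SESN2 (407 ± 57.4), PRKAB1 (365 ± 8.1), TSC1 (134 ± 10.8), SESN1 (50.4 ± 0.05), DEPTOR (27.1 ± 2.07) and SESN3 (10.9 ± 0.20). Within this order the libraries of TSC2 and MTOR overlapped, as did those of SESN2 and PRKAB1, and the other neighbours did not. At Nut 1h MTOR was highest (604 ± 0.11) and DDIT4 stood sixth (246 ± 11.2). These levels are without the GC-content offset, with which RPTOR and TSC2 had log2 fold changes of 0.02 and -0.04 at Nut 1h. At Nut 10h DDIT4 was again highest (2458 ± 206), and SESN2 (1096 ± 91.6) and PRKAB1 (999 ± 8.23) came next, above RPTOR (904 ± 43.6). SESN1 (322 ± 27.5) lay above TSC1 (157 ± 11.5) at Nut 10h, the reverse of their order at Nut 0h. No neighbours overlapped at Nut 1h or at Nut 10h. The ratio of TSC2 to TSC1 per kb was 5.17 and 4.43 at Nut 0h, 2.08 and 2.22 at Nut 1h, then 4.56 and 3.70 at Nut 10h. That of RPTOR to MTOR was 1.55 and 1.29 at Nut 0h, 0.789 and 0.876 at Nut 1h, then 1.79 and 1.63 at Nut 10h. Both ratios were lower at Nut 1h than in any other library, and both set a GC-rich against a less GC-rich transcript. Ranks and ratios per kb also depend on the transcript length used. The canonical and the longest transcript have 2219 and 4019 bases for PRKAB1, and 6415 and 8598 for TSC2. With the longest transcript the levels per kb of PRKAB1 and TSC2 would be lower, and the ranks with it were not computed.

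To place these genes in their pathway, 84 genes of 12 groups from nutrient sensing to mTORC1 effectors, the 10 genes included, were examined, of which 82 were tested. PRKAG3 had 1 count in total and PIK3R2 at most 11 in a library. At Nut 10h 19 were called higher and 7 lower, or 23.2% and 8.54% of those tested, beside 14.1% and 14.9% of all tested genes, and the median log2 fold change was 0.06 beside 0.00017 over all tested genes. Without the 10 genes, 13 of 72 were higher and 7 lower (18.1% and 9.72%), and this share called higher is close to that of all genes. The number called lower was 3 when Nut 0h replicate 1 was left out and 13 with the GC-content offset, where 22.4% of all tested genes were called lower. No gene of the Rag GTPases and Ragulator (9 tested) or the subunits specific to mTORC2 (4) was called at Nut 10h by edgeR or DESeq2, and 0 had an unadjusted p under 0.05. Of GATOR1 (3 tested) 0 were called by either tool and 1, NPRL3, had an unadjusted p under 0.05, while with the offset NPRL2 and NPRL3 were called lower.

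The AMPK group had 4 of 12 tested genes called higher at Nut 10h (3 by DESeq2) and 0 lower by either tool or at an unadjusted p under 0.05, beside 14.1% and 14.9% of all tested genes: PRKAB1, PRKAB2, PRKAG2 (a γ subunit) and CAB39 (a partner of the AMPK-activating kinase STK11). Among genes averaging at least 100 normalized counts and besides PRKAB2, the largest rises at Nut 10h outside the 10 genes were those of WDR59, a GATOR2 subunit (log2 fold change 0.71, SE 0.09, adjusted p = 3.29e-05), and TFEB, a transcription factor of lysosome and autophagy genes that mTORC1 restrains (0.53, SE 0.13, adjusted p = 0.00913). ULK1 and ATG13, of the kinase complex that starts autophagy, were also called higher. With the same limit, the largest falls were those of FNIP2, a partner of folliculin (-0.70, SE 0.13, adjusted p = 0.000897), AKT1, the kinase that inhibits TSC2 (-0.51, SE 0.11, adjusted p = 0.00311), and RHEB (-0.43, SE 0.09, adjusted p = 0.00281). RHEBL1, a relative of RHEB under that limit, had a larger fall (-1.04, SE 0.26, adjusted p = 0.00736). EIF4EBP1, a translation repressor that mTORC1 inactivates, MLST8 and WDR24 were the others called lower.

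At Nut 1h 22 of the 82 tested genes were called higher and 34 lower (26.8% and 41.5%), beside 34.5% and 32.3% of all tested genes, and with the GC-content offset 9 and 30, beside 20.3% and 25.2%. The median log2 fold change of the list was -0.10 beside 0.05 over all tested genes, and -0.11 beside -0.02 with the offset. Among genes averaging at least 100 normalized counts, the largest rises outside the 10 genes were those of MIOS, a GATOR2 subunit (1.07, SE 0.11, adjusted p = 2.36e-06), EIF4E, the cap-binding protein (1.03, SE 0.10, adjusted p = 1.39e-06), and PRKAA1, a catalytic AMPK subunit (1.00, SE 0.12, adjusted p = 6.84e-06). Of these only MIOS was called with the offset (0.35, adjusted p = 0.00257), while EIF4E had 0.10 (adjusted p = 0.327) and PRKAA1 0.19 (adjusted p = 0.0503). With the same limit, the largest falls were those of TFEB (-1.90, SE 0.16, adjusted p = 4.7e-07), EIF4EBP1 (-1.56, SE 0.13, adjusted p = 2.97e-07) and PRR5, an mTORC2 subunit (-1.56, SE 0.13, adjusted p = 3.32e-07). All 3 were still called lower with the offset, at -0.98, -0.52 and -0.59. Under that limit, GATSL3, which encodes the arginine sensor CASTOR1, fell from 24.2 and 40.4 to 3.01 and 2.52 normalized counts (-3.48, adjusted p = 7.49e-05, and -2.69 with the offset), and its relative GATSL2 from 29.0 and 23.5 to 6.02 and 5.03 (-2.21, adjusted p = 0.00059, and -1.34). TFEB, like DDIT4, was thus lower at Nut 1h and higher at Nut 10h than at Nut 0h.

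Genes whose course over the 6 libraries was most like that of a member were found by the Euclidean distance between centred log2 CPM values among 11575 genes with at least 100 normalized counts on average. Nearest to SESN1 were GRHL3 (distance 0.303), PRDM1 (0.335) and ACER2 (0.369). Nearest to SESN2 was TAP1 (0.0772), followed by ZNF469 (0.201) and BAX (0.214), and nearest to PRKAB1 were FHL2 (0.140), CYP4F11 (0.169) and XPC (0.195). For SESN3 the nearest were C11orf54 (0.146), TMEM87B (0.150) and FZD6 (0.152). The nearest to DDIT4 were MTND2P28 at 0.359, CTD-2192J16.15 at 0.433 and RP11-742N3.1 at 0.596, and the first is a pseudogene copy of a mitochondrial gene whose reads may be shared with its source. Distance is a description of these libraries, in which the Nut 1h values hold the GC trend.

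Neither the strand setting of the counting nor its treatment of reads that map to several places is given in the sources used here. Reads of members whose exons overlap another gene may therefore be shared. In the GENCODE annotation on GRCh37 this holds for TSC2 with PKD1, for TSC1 with GFI1B, for MTOR with MTOR-AS1 and ANGPTL7, for DEPTOR with DEPTOR-AS1 and for SESN1, SESN3, RPTOR and PRKAB1 with long non-coding RNA genes, RPTOR also with a further protein-coding gene. SESN2 and DDIT4 overlap no other gene.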

How the data were processed

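The 6 RNA-seq libraries, 2 biological replicates for each condition, were grouped by their labels. Per the submitters' processing notes and the study's methods, the authors trimmed reads with Trim Galore 0.6.6, aligned them with STAR 2.7.0f to GRCh37.p13 and counted them per gene with featureCounts of Subread 2.0.0. The deposited matrix holds these raw counts for 57905 genes. The authors' deposited table of comparisons, made with DESeq2 1.36.0, holds base means, log2 fold changes, standard errors, statistics and p-values. Only its gene symbols were used.

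Genes were filtered with filterByExpr (16565 kept), normalized by TMM and tested in R 4.3.3 by the quasi-likelihood method of edgeR 4.0.16 (limma 3.58.1). The model had no term but the condition, all 6 libraries, 3 residual degrees of freedom and Benjamini-Hochberg adjustment over all tested genes. Genes were called at an adjusted p of at most 0.05. Standard errors were derived from the log2 fold change and its F statistic. For normalized counts, each count was scaled by the library's effective size relative to the mean size, and levels per kb use the canonical transcript, or the longest one for DDIT4. GC-content and length offsets are loess trends (span 0.4) of each library on the longest transcript, with a GC content for 97.4% of tested genes. Code was tested on simulated data. Promoter sequences are from RefSeq (GRCh38.p14), a different build from that of the counts, and were matched by symbol. They were not used for DEPTOR. Alternatives were RLE normalization, no low-count filter, DESeq2 1.42.0, a replicate block, fits of 2 conditions, the offsets and each library left out in turn. From the pathway list, the 3 largest rises and falls against Nut 0h were named among genes called, averaging at least 100 normalized counts, with non-overlapping groups. Other genes were named after their values were seen. Some genes of the lists are not reported here by name. The 10 genes, the lists and the tests were chosen with earlier results of these data known. Figures were drawn with matplotlib 3.10.9.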

Additional observations from a re-analysis of the deposited data

Results flagged for a closer look

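For 7 genes the effect of Nutlin-3a against Nut 0h differed between Nut 1h and Nut 10h by a direct test of Nut 10h against Nut 1h. This test shares libraries with both comparisons and uses the log2 fold change from Nut 1h to Nut 10h. The difference was 3.32 for DDIT4, which went from below Nut 0h to above it in both replicates, as SESN2 did with a difference of 2.02, although the GC-content offset turned the Nut 1h value of SESN2 to 0.17 (adjusted p = 0.0867). SESN1 had 2.05 and PRKAB1 1.356, in each case with the larger level at Nut 10h. DEPTOR had 0.77, from at most 131 counts in a library. TSC2 had 1.01 and RPTOR 0.85, and both had returned to the Nut 0h level at Nut 10h within the spread of the replicates. With the GC-content offset the differences of TSC2 and RPTOR fell to 0.04 and 0.02 and were no longer called, while those of DDIT4 (2.65), SESN1 (2.66), SESN2 (1.23), PRKAB1 (1.42) and DEPTOR (1.06) were. SESN3 and MTOR, not called without the offset, were called with it, at 0.71 and -0.41.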

How the results depend on the processing

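Of 450 log2 fold changes of the 10 genes under 15 alternatives, 423 stayed on their side of the threshold (30 of these, 0 of them called, changed sign), 10 were newly called and 9 lost the call with the same sign, and 8 changed sign, of which 6 lost the call, 2 gained one and 0 were called in both directions. All member calls were made in each of the 6 fits that left out a library. The GC-content offset changed most. At Nut 1h it left 0 members higher and 1 lower and 9 pathway genes higher, with or without the replicate block. Its changes of sign that came with a changed call are given for the 10 genes and the pathway genes named by size. At Nut 1h these were SESN1 (-0.018, and -0.017 with the block), SESN2 (0.17), RPTOR (0.016, and 0.015), FNIP2 (-0.43) and AKT1 (0.27). Between Nut 1h and Nut 10h they were SESN3 (0.71) and AKT1 (-0.79). Apart from SESN1 and RPTOR, the rounded values were the same with the block. Further pathway genes changed sign, such as STK11 at Nut 1h (-1.24 without the offset and 0.14 with it). Of 82 pathway genes tested, the 10 genes included, 6 at Nut 1h (AKT1, KPTN and AKT2 among them) and 5 between Nut 1h and Nut 10h (PRKAA2, CAB39, KPTN, LAMTOR4 and AKT2) were called in opposite directions with and without it, and 0 at Nut 10h. It called 1 member (MTOR) lower at Nut 10h and 1 lower against Nut 1h, and 13 pathway genes lower at Nut 10h (12 with the block). The transcript-length offset called 1 member (MTOR) lower at Nut 10h, 5 lower at Nut 1h (MTOR added) and 8 higher between Nut 1h and Nut 10h (TSC1 added, at 0.31). The fit of only the 2 conditions called 4 pathway genes lower at Nut 10h, and leaving out a library gave 3 to 10. The cause of these shifts was not tested.

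Same-numbered libraries deviated together between Nut 0h and Nut 10h (r 0.45 over 16565 genes) but not between Nut 0h and Nut 1h (-0.31) or Nut 1h and Nut 10h (-0.28), so the numbers were not taken as pairs. The replicate block alone moved no count of calls by over 1.5 times. A crossed block, with the Nut 1h numbers exchanged, was chosen after seeing the data. At Nut 10h it called 7 members higher and 1 lower, and 25 pathway genes higher and 15 lower. Between Nut 1h and Nut 10h it called 7 members higher and 1 lower. Among the 10 genes, depth limits DEPTOR and SESN3 most.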
